A study of Homo sapiens with 4 samples.

Results

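The ATP-binding cassette (ABC) transporter genes were defined as the protein-coding genes of GENCODE release 44 (hg38) whose symbol is ABCA, ABCB, ABCC, ABCD, ABCE, ABCF or ABCG followed by digits, and 45 of the 19689 protein-coding genes met this definition. Open chromatin at their promoters and gene bodies was compared by ATAC-seq, in which a transposase cuts and tags accessible DNA, between C4-2B and C4-2BER. C4-2B is a human prostate adenocarcinoma cell line, and C4-2BER is an enzalutamide-resistant, neuroendocrine-like (NE-like) line derived from it. Enzalutamide blocks the androgen receptor. Both lines were grown in serum-containing RPMI medium, to which enzalutamide was added throughout for C4-2BER only, so the resistant state and the drug itself cannot be told apart. Each line had 2 libraries, which the authors merged before they called peaks. The comparison therefore rests on 1 peak list per line and on 1 resistant line. No test between the lines was possible, no spread between replicates was available, and every interval given covers counting error only.

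ABC proteins bind and hydrolyse ATP, and most use it to move a substrate across a membrane. Some pump drugs, glutathione conjugates and other foreign compounds out of cells and are known from multidrug resistance of tumours. Others move cholesterol, phospholipids, bile salts or long-chain fatty acids, some work in mitochondria, lysosomes and peroxisomes, and a few lack membrane domains and act on the ribosome. Open chromatin at a promoter goes with transcription but is not a measure of it, and no transcript was measured here.

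The list of C4-2B held 149676 peaks and that of C4-2BER held 118728. The depth that macs2 used, worked back from the lowest local background in each list, was 30.2 M reads in C4-2B against 25.2 M in C4-2BER, a ratio of 1.20, so weak sites were more easily called in C4-2B. Reads behind each summit were solved from the fold enrichment and the p-value of the authors and ranged from 8 to 395 in C4-2B and from 7 to 395 in C4-2BER. Fixed luminal and neuroendocrine markers had a promoter peak in both lines. KLK3, the luminal marker prostate-specific antigen, had 171 promoter reads in C4-2B against 45 in C4-2BER, and NCAM1, a neuroendocrine marker, had 24 and 59. The NCAM1 values came from different sites, at -172 bp from the canonical TSS in C4-2B and 1725 bp downstream of it in C4-2BER. CHGA and SYP differed by a log2 ratio of 0.00 and -0.04, so not every neuroendocrine marker was more open in the line labelled NE-like.

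Sequences are printed for a few of the sites that differed between the lines, chosen after their values were seen, and are referred to again beside those values. All were read from hg38 and run 5′ to 3′ on the strand of the gene. Capitals mark matches to fixed motifs, which were searched on both strands and did not overlap in these windows. The motifs were a GC box (GGGCGG), AP-1 (TGANTCA), a forkhead site (TGTTTAC or TATTTAC), an androgen response element (GNACA and TGTNC spaced by 3 bases), an LXR element (direct repeats of GGTCA spaced by 4 bases) and a CTCF element. The first set holds 120 bases upstream of a TSS of 3 genes whose promoter was called in C4-2BER only or was more open there. The ABCB4 window is chr7:87475849-87475968 (minus strand), the ABCC2 window is chr10:99782520-99782639 (plus strand) and the ABCD2 window is chr12:39619804-39619923 (minus strand).
ABCB4: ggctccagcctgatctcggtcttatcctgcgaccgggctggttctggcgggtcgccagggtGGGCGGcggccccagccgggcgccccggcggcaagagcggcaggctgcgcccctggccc
ABCC2: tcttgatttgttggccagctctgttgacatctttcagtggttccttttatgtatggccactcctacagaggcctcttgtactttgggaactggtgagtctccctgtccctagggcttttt
ABCD2: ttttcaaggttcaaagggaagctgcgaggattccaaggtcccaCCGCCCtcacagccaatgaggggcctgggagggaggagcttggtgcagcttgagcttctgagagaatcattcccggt
ABCB4 and ABCD2 each held 1 GC box, and ABCC2 held no match. Of the windows of 120 bases upstream of the canonical TSS of all genes, 49.4% held a GC box. The ABCB4 window is not of that kind. It lies upstream of an alternative TSS and does not hold the C4-2BER summit, which is closer to the canonical TSS.

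The second set holds 201 bases centred on the summit of 4 sites that were stronger in C4-2B or called there only. They are an internal site of ABCC8 (chr11:17405781-17405981, minus strand), introns of ABCB11 (chr2:169026130-169026330, minus strand) and ABCC1 (chr16:16041354-16041554, plus strand), and an intron upstream of the main TSS of ABCG2 (chr4:88216467-88216667, minus strand).
ABCC8: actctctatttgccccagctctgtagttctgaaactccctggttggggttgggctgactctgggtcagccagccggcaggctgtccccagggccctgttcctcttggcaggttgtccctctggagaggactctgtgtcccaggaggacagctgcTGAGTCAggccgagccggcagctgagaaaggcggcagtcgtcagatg
ABCB11: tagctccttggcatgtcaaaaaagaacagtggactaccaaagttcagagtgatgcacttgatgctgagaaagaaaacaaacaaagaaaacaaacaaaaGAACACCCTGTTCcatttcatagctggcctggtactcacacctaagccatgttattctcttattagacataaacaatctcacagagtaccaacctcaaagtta
ABCC1: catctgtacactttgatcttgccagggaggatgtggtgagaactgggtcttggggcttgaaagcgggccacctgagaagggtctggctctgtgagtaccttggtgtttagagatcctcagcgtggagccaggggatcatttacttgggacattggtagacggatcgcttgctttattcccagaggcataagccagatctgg
ABCG2: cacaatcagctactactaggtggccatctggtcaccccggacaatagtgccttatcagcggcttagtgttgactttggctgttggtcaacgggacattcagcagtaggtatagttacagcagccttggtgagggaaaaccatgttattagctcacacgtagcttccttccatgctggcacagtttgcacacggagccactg
The ABCC8 site held an AP-1 match and the ABCB11 site an androgen response element. No match was found in the ABCC1 and ABCG2 windows.

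The first question was whether the promoter of each gene was accessible. A gene was scored by any peak within 2000 bp of any of its annotated TSSs. Of the 45 ABC genes, 34 had a promoter peak in both lines (75.6%, Wilson 95% interval 61.3 to 85.8), against 77.7% of all protein-coding genes. In C4-2B only, 4 genes had one (8.89%, 3.51 to 20.7, against 2.83% of all genes), namely ABCA6, ABCA10, ABCB11 and ABCC3. In C4-2BER only, 3 genes had one (6.67%, 2.29 to 17.9, against 3.39%), namely ABCC2, ABCC9 and ABCG8. No promoter peak was called in either line at ABCA4, ABCA8, ABCA9 and ABCG5 (8.89% against 16.0% of all genes). The share open in both lines lay near that of all genes. The interval of the C4-2B-only share began just above its background, but only 2 genes were in that class when equal numbers of top peaks were compared and only 1, ABCA6, when the canonical TSS alone was used.

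The genes open in both lines covered every role. They were the efflux genes ABCB1, ABCB5, ABCC1, ABCC4, ABCC5, ABCC6, ABCC10, ABCC11 and ABCG2 (9 of 11), 13 of 21 lipid genes, among them ABCA1, ABCA2, ABCA3, ABCA5, ABCA7, ABCA12, ABCA13, ABCB4, ABCD2, ABCD3, ABCG1 and ABCG4, all 6 mitochondrial and lysosomal genes, among them ABCB6, ABCB8, ABCB9, ABCB10 and ABCD4, ABCC8 of the 2 potassium channel subunits, all 4 ribosome and translation factors (ABCE1, ABCF1, ABCF2 and ABCF3), and ABCC12, whose substrate is not settled. Genes open in both lines were rich in G and C within 500 bp of the canonical TSS, with a median of 62.6% GC and an observed over expected CpG ratio of 0.735. The 4 genes called in C4-2B only had medians of 37.4% and 0.162, the 3 called in C4-2BER only 50.6% and 0.327, and the 4 without a peak 41.8% and 0.265. At ABCA10, ABCB11, ABCC3 and ABCG8, and at ABCA12, ABCB5 and ABCC11 of the genes open in both lines, no peak was called at the canonical TSS. For these genes the composition is not that of the site called. Over all genes the order of the first 2 classes was the same (63.3% and 54.2% GC). The class without a peak lay below C4-2B only there (49.2% GC), the reverse of the ABC genes.

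**Figure D1:**
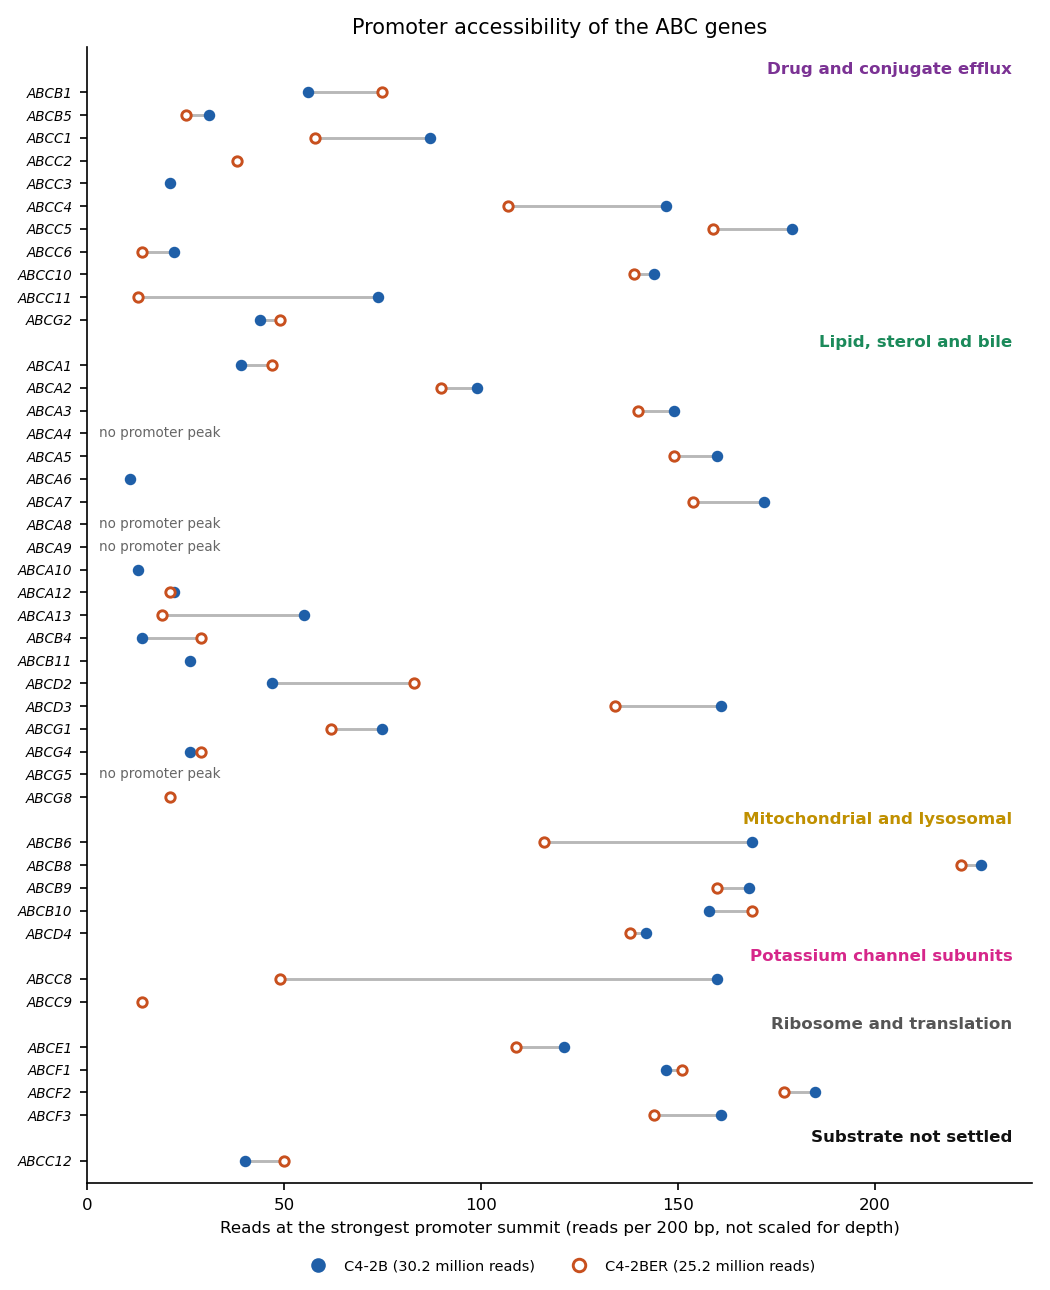
Reads at the strongest promoter summit (x axis, reads per 200 bp, not scaled for depth) of the ABC genes, grouped by role, with filled points for C4-2B, open points for C4-2BER and a line joining genes found in both. Most genes with over 100 reads differ little between the lines, while ABCC8 has 160 in C4-2B and 49 in C4-2BER, and ABCD2 has 47 and 83.

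At gene bodies, taken from the annotated start to the end, 42 of 45 genes had a peak in both lines (93.3%, 82.1 to 97.7, against 84.5% of all genes). No ABC gene had one in C4-2B only (0 of 45, which allows a share of up to 7.87%, against 2.25%), and none lacked one in both lines (0 of 45, against 11.4%). The remaining 3 genes, ABCA8, ABCC9 and ABCG5, had a gene-body peak in C4-2BER only (6.67%, 2.29 to 17.9, against 1.85%). These shares were not adjusted for gene length, which ran from 7918 bp at ABCF3 to 476040 bp at ABCA13. The peak of ABCA8 had 12 reads, and that of ABCG5 had 21 reads and was the same interval as the promoter peak of its neighbour ABCG8.

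The ABC genes were next ranked by the log2 ratio of reads at the strongest promoter summit, C4-2BER over C4-2B, scaled for depth. Over the 34 genes with a promoter peak in both lines the median was 0.18 (quartiles -0.01 and 0.34), with 24 genes above 0 and 10 below. The median of all 15305 such genes was 0.14, with 11468 above 0 and 3837 below, so the tilt above 0 was general. A difference of 2-fold or more was seen higher in C4-2BER at 2 ABC genes (3.06% of all genes) and lower at 3 (1.39% of all genes). These were ABCB4 and ABCD2 on the one side and ABCC11, ABCC8 and ABCA13 on the other, and for ABCB4 and ABCC11 the values of the lines came from different sites. The 9 efflux genes had a median of -0.05, the 13 lipid genes 0.17, the 6 mitochondrial and lysosomal genes 0.22 and the 4 translation factors 0.15. Differences between these medians were not tested.

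**Figure D2:**
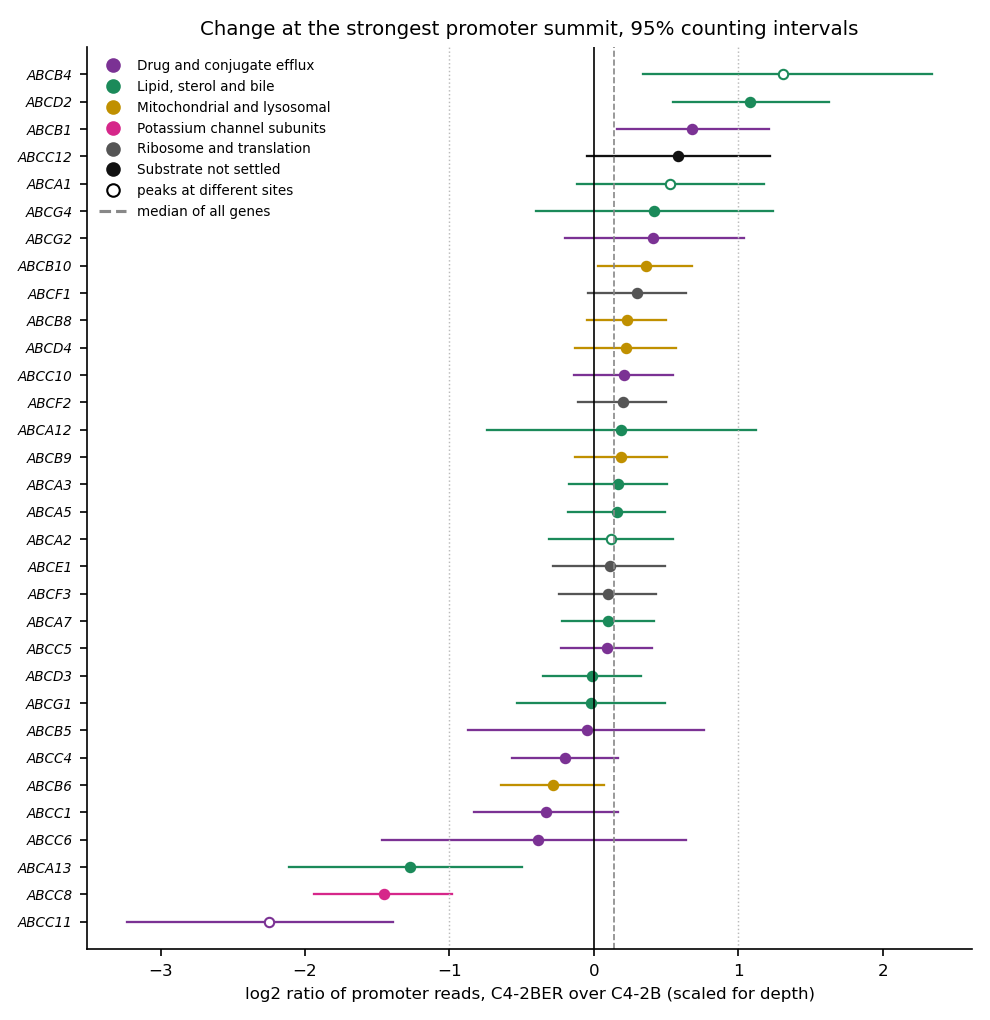
Log2 ratio of promoter reads, C4-2BER over C4-2B, for ABC genes open in both lines, ranked, with 95% counting intervals and colours for role; open points mark genes whose strongest peaks do not overlap, and the dashed line is the median of all genes (0.14). Most intervals cross 0, ABCD2 and ABCB1 lie above it, and ABCA13 and ABCC8 lie below it.

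Among the efflux genes, ABCB1 stood highest. It encodes P-glycoprotein, the classical multidrug pump, and its promoter summit, 41 bp upstream of the canonical TSS, had 56 reads in C4-2B against 75 in C4-2BER (log2 ratio 0.68, 0.16 to 1.21). The local background was higher there too, at 1.24 and 1.93 times the lowest background of each list, and the enrichment of the authors was 15.1-fold and 16.5-fold, a log2 ratio of 0.13. ABCG2, the breast cancer resistance protein, had 44 and 49 reads (0.41, -0.20 to 1.04). Neither gene reached a 2-fold difference at its promoter, and only the interval of ABCB1 lay above 0.

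ABCC10, a drug exporter, and ABCC5, an exporter of drugs and cyclic nucleotides, followed with log2 ratios of 0.21 and 0.09. ABCC5 had one of the strongest promoters of the family, with 179 reads in C4-2B against 159 in C4-2BER. ABCB5 had a ratio of -0.05 at a summit 32720 bp downstream of its canonical TSS and 965 bp past an alternative one, and no peak was called at the canonical TSS. ABCC4, which exports cyclic nucleotides, steroid conjugates and prostaglandins, had 147 and 107 reads (-0.20, -0.57 to 0.17). ABCC1, the first multidrug resistance-associated protein, had 87 and 58 (-0.33, -0.83 to 0.17), and ABCC6 had 22 and 14 (-0.39, -1.47 to 0.64). All of these intervals included 0.

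ABCC11 had the lowest ratio of the ranking, -2.25, from 74 reads in C4-2B against 13 in C4-2BER, but the values belonged to different sites. The C4-2B summit of 74 reads lay 17657 bp downstream of the canonical TSS in an interval that reached into the promoter window of an alternative TSS, and the overlapping C4-2BER interval of 48 reads stopped short of that window. Compared between these overlapping intervals, the ratio was -0.37 (-0.92 to 0.18). At its other alternative promoter ABCC11 had 32 and 13 reads (-1.04, -2.09 to -0.07).

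Promoters of 2 efflux genes were called in 1 line only. ABCC2, a pump for conjugated bilirubin and drug conjugates, had 38 reads in C4-2BER at a summit 24 bp upstream of its canonical TSS, with a -log10 q of 17.9, inside the ABCC2 window printed above, and no peak there in C4-2B. ABCC3, a basolateral pump of related conjugates, had 21 reads in C4-2B at a summit 39641 bp into the gene, 907 bp past an alternative TSS, and neither line had a peak at its canonical TSS. The site of ABCC2 was thus at the canonical start, and that of ABCC3 was not.

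Among the lipid genes, ABCB4, the phosphatidylcholine floppase of bile, ranked first with a ratio of 1.31 that compared different starts. Its canonical promoter had 29 reads in C4-2BER, 84 bp upstream of the TSS, and no peak in C4-2B. Its C4-2B value of 14 reads came from a summit 70837 bp downstream, at -1642 bp from an alternative TSS. ABCD2, a peroxisomal importer of very long-chain fatty acids, had 47 reads in C4-2B against 83 in C4-2BER at the same site (1.08, 0.55 to 1.63). There the local background was 1.51 and 3.29 times the lowest value and the fold enrichment was 11.0 and 11.8, a log2 ratio of 0.10. ABCA1, the cholesterol exporter that loads apolipoprotein A-I, had 39 and 45 reads at its canonical promoter summit (0.47) and a further C4-2BER-only peak of 47 reads 1513 bp downstream, for a ratio of 0.53 (-0.12 to 1.18) between the strongest summits.

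Lower in the ranking of lipid genes, ABCG4 (0.42), ABCA12 (0.19), ABCA3 (0.17), ABCA5 (0.16), ABCA2 (0.12), ABCA7 (0.10), ABCD3 (-0.01) and ABCG1 (-0.02) all had intervals that included 0. They include the sterol exporters ABCG1 and ABCG4, the surfactant lipid pump ABCA3 and the peroxisomal importer ABCD3. ABCA13, a large transporter of the ABCA subfamily, came last. Its peak 1967 bp downstream of the canonical TSS, near the edge of the promoter window, had 55 reads in C4-2B against 19 in C4-2BER (-1.27, -2.11 to -0.50), and it kept a ratio past 2-fold on the enrichment of the authors.

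The lipid genes called in 1 line only had weak promoter peaks. In C4-2B, ABCB11, the bile salt export pump, had 26 reads at a summit 102687 bp into the gene, in the window of an alternative TSS, ABCA10 had 13 and ABCA6 had 11. In C4-2BER, ABCG8, a sterol half-transporter that pairs with ABCG5, had 21 reads at a position of -7089 bp from its canonical TSS. ABCA6 was the only gene of these with its peak at the canonical TSS, 12 bp upstream of it. ABCA5, ABCA6, ABCA8, ABCA9 and ABCA10 lie together on chromosome 17, and of these ABCA5 had a strong promoter, with 160 and 149 reads, while the single promoter peak of ABCA10 lay within the gene body of ABCA5.

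Promoters of the organelle and translation genes were strong and differed little. ABCB8, a mitochondrial inner-membrane transporter, had 227 and 222 reads, the most of any ABC gene. Among the organelle genes, ratios were 0.36 at ABCB10 (158 and 169 reads, 0.03 to 0.68) and -0.28 at ABCB6 (169 and 116 reads), both transporters linked to iron and haem. Among the translation factors ABCF1 had 0.30, ABCF2 0.20, ABCE1 0.11 and ABCF3 0.10. The promoter windows of ABCD4, ABCE1 and ABCF2 shared their peak with a neighbouring gene or a read-through gene, so these values cannot be ascribed to the ABC gene alone. ABCC12 had 40 and 50 reads (0.58, -0.05 to 1.22).

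The potassium channel subunits differed between the lines at different kinds of site. ABCC8, the sulfonylurea receptor SUR1, had 160 reads in C4-2B against 49 in C4-2BER (-1.45, -1.94 to -0.98, or -0.70 on the enrichment of the authors) at the printed AP-1 site, which lies 70964 bp into the gene and at -1234 bp from an internal TSS. At its canonical promoter it had 34 and 44 reads, a ratio of 0.63 with an interval that included 0 (-0.05 to 1.32). ABCC9, the receptor SUR2, had no peak at all in C4-2B and 6 in C4-2BER. Their reads ran from 11 to 18, and 2 of the 6 lay 322 and 771 bp upstream of the canonical TSS. The ABCC9 peaks were thus spread along the gene and all were weak.

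All peaks at ABC promoters and gene bodies were then counted once. C4-2B had 293 such peaks, and 105 of them overlapped no C4-2BER peak (35.8%, 30.6 to 41.5, against 35.1% of peaks at all genes). C4-2BER had 232, and 39 overlapped no C4-2B peak (16.8%, 12.5 to 22.2, against 18.8%). The shares of peaks of 1 line only were thus near those at genes in general. With equal numbers of top peaks taken from each list, 60 were found in C4-2B only and 55 in C4-2BER only (26.0% and 23.7%). Lists of equal length bring these shares close together in advance. The line-only peaks of the full lists were mostly intronic, and introns held the summit in 88 gene-peak pairs of C4-2B only and in 27 of C4-2BER only.

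The C4-2B-only peaks were concentrated at a few genes. ABCC4 had 16 among 33, ABCC1 13 among 26, ABCA13 8 among 19 and ABCG2 7 among 13, while ABCA4, ABCA5, ABCB9, ABCB11, ABCC5 and ABCC12 had 4 each. In C4-2BER the most were 6 of 6 at ABCC9 and 3 of 10 at ABCA1, and ABCA4, ABCA9, ABCA10, ABCB1, ABCB4, ABCC2, ABCD4, ABCG1 and ABCG2 were among those with 2 each. The longest lists were those of long genes, since ABCC4 spans 281641 bp, ABCC1 194120 bp and ABCA13 476040 bp.

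**Figure D3:**
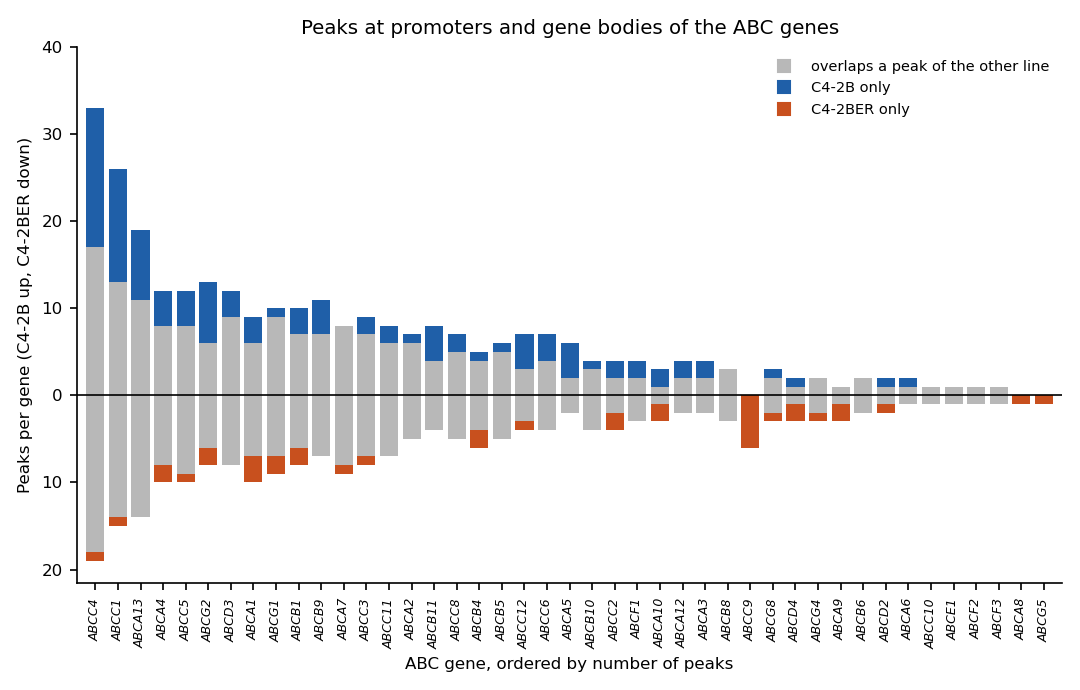
Number of peaks at the promoter windows and gene body of the ABC genes, with C4-2B drawn upward and C4-2BER downward, grey for peaks that overlap a peak of the other line and colour for peaks of 1 line only. ABCC4, ABCC1 and ABCA13 carry the most C4-2B-only peaks (16, 13 and 8), and ABCC9 is drawn downward only, with 6.

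Sites found in both lines were paired and their depth-scaled reads compared. Over 183 such sites at ABC genes the median log2 ratio was -0.19, against -0.11 over the 54360 sites at all genes. Below 0 lay 115 of the 183 sites, and 31542 of the 54360, so a majority below 0 was general. At ABC genes 31 sites (16.9%, 12.2 to 23.0) were 2-fold or more lower in C4-2BER, against 13.2% at all genes. Only 5 (2.73%, against 2.51%) were 2-fold or more higher. By role, 22 of 75 sites at efflux genes were 2-fold or more lower (29.3%, 20.2 to 40.4), with a median of -0.42 and 59 of the 75 below 0. The shares were 8 of 78 at lipid genes (10.3%), 0 of 16 at mitochondrial and lysosomal genes and 1 of 5 at the channel subunits. Sites of 1 gene are not independent, and ABCC4 alone gave 10 of the 22. Without ABCC4, 12 of 58 efflux sites were lower (20.7%, 12.3 to 32.8), an interval that includes the background.

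**Figure D4:**
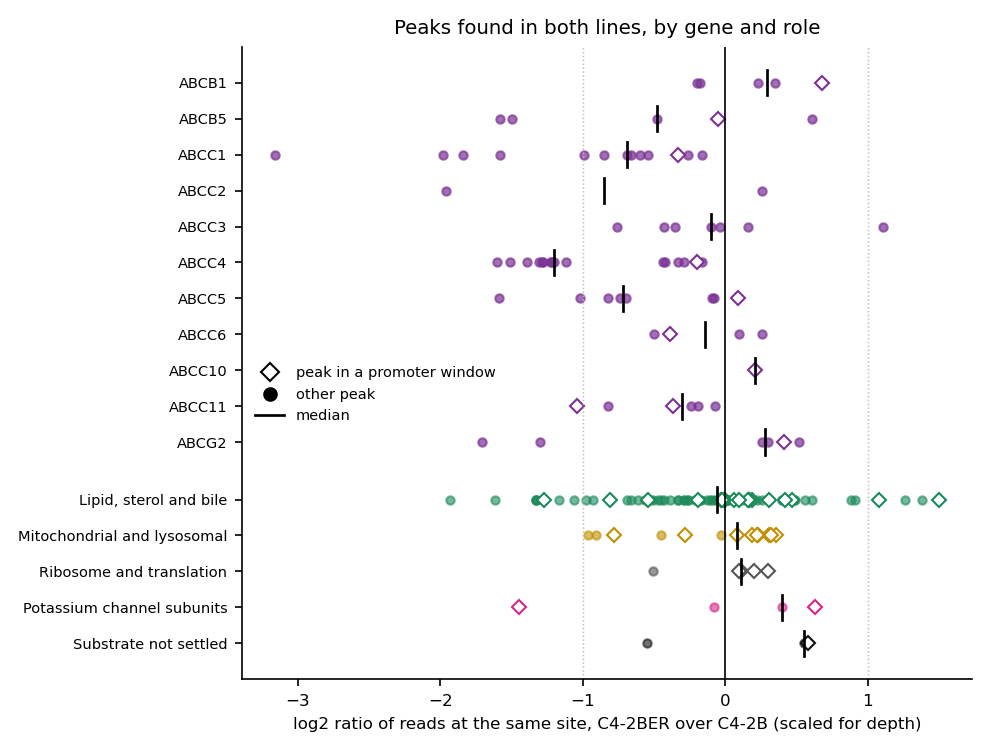
Log2 ratio of reads at sites found in both lines, C4-2BER over C4-2B, 1 point per site, with each efflux gene on its own row and the other roles pooled; diamonds are sites in promoter windows, and black bars are medians. All 17 sites of ABCC4 and all 13 of ABCC1 lie below 0, with the promoter diamond toward the right of each row, and the organelle and translation genes lie close to 0.

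ABCC4 and ABCC1 showed the same arrangement, with small differences at the promoter and larger ones along the gene. Whether this arrangement is particular to these genes was not tested. Over all genes, 1.39% of strongest promoter summits and 13.2% of same-site peaks were 2-fold or more lower in C4-2BER. These shares are unlike measures. The first takes the strongest promoter summit of each gene, and the second takes every paired site, promoter sites included. At ABCC4 all 17 paired sites were below 0, with a median of -1.20 and a range from -1.60 to -0.16, against -0.20 at the promoter. An intronic site 87838 bp downstream of the TSS, for example, gave 89 reads in C4-2B against 30 in C4-2BER (-1.31, -1.96 to -0.70). Among its C4-2B-only peaks, the strongest had 102 reads 33188 bp downstream of the TSS and held an AP-1 match. The local background at ABCC4 was also higher in C4-2B, at 5.46 times the lowest value against 2.12 times in C4-2BER for the site at 87838 bp, and whether DNA copy number differed between the lines was not tested.

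At ABCC1 all 13 paired sites were below 0, with a median of -0.69, and 4 were lower by 2-fold or more. The printed site 91838 bp into the gene had 139 reads in C4-2B against 13 in C4-2BER, a ratio of -3.16 (-4.10 to -2.34), although the C4-2BER summit lay at 91509 bp, within the same C4-2B interval. A site 147219 bp into the gene had 99 and 21 reads (-1.98) and one at 86973 bp had 103 and 24 (-1.84). The local background at these sites was again several-fold higher in C4-2B, at 7.88, 6.87 and 6.51 times the lowest value against 1.78, 1.87 and 1.58 times.

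At other efflux genes the promoter and distal sites also differed. ABCG2 had 86 and 22 reads at the printed site at -57928 bp from the canonical TSS (-1.71, -2.45 to -1.02) and 50 and 17 at a site at -46427 bp (-1.30), both within introns of its longer transcripts, while its 3 paired sites downstream of the TSS and its promoter had ratios from 0.26 to 0.52. ABCC2, whose promoter was called in C4-2BER only, had 56 and 12 reads at an intronic site 29682 bp into the gene (-1.96, -3.00 to -1.05). ABCB5 had ratios of -1.50 and -1.58 at 2 intronic sites, and ABCC5 had -1.59 at a site 58942 bp into the gene against 0.09 at its promoter. ABCB1 did not show such low sites, with 6 paired sites from -0.20 to 0.68 and a median of 0.29.

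**Figure D5:**
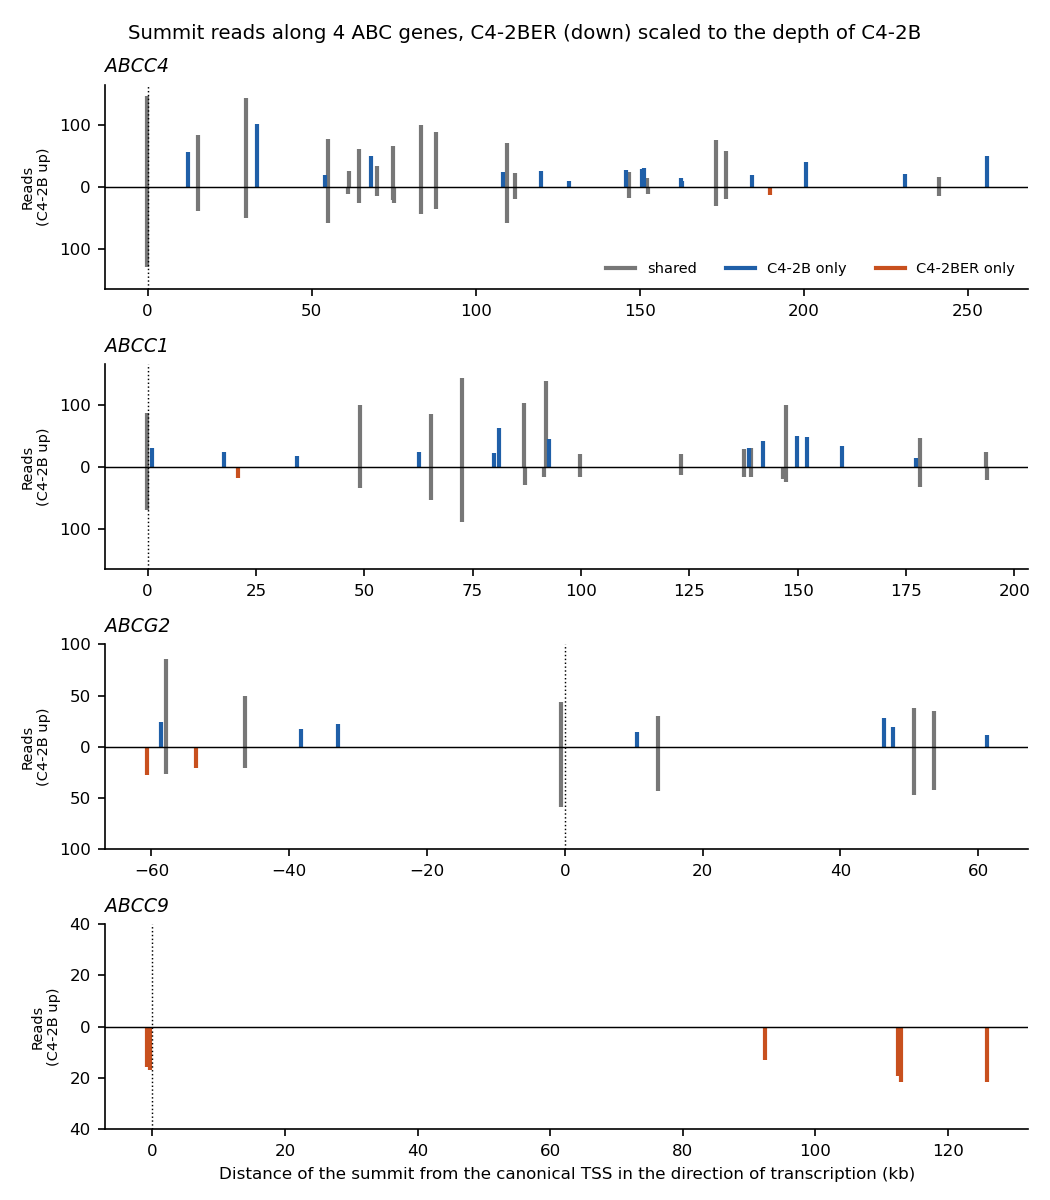
Reads at each summit against its distance from the canonical TSS in the direction of transcription (kb) for ABCC4, ABCC1, ABCG2 and ABCC9, with C4-2B drawn upward and C4-2BER downward after scaling to the depth of C4-2B. Bars at the TSS of ABCC4 and ABCC1 are of similar height in both lines while most distal bars are taller upward, and ABCC9 has bars of C4-2BER only.

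Among the lipid genes, single sites away from the canonical TSS differed in both directions. ABCA4, the retinal flippase, had no promoter peak but 114 and 25 reads at an intronic site 98485 bp into the gene (-1.93, -2.62 to -1.30). ABCB11 had a C4-2B-only intronic peak of 63 reads, the printed one with an androgen response element 5094 bp into the gene, and ABCA10 had one of 89 reads. ABCD3 had 3 intronic or exonic sites at -1.33 and ABCG1 had 2 at -1.62 and -1.17. In the other direction ABCA7 had 28 and 66 reads (1.50, 0.84 to 2.19) at a site 22756 bp into the gene, which lies in the promoter window of an internal TSS, and a C4-2BER-only peak of 71 reads near its end that also lies in the promoter window of ARHGAP45.

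Motif matches within 100 bp of the summit were counted in peaks of 1 line only. Of the 105 C4-2B-only peaks, 4 held an androgen response element (3.81%, 1.49 to 9.39, against 2.76% at all genes), among them peaks at ABCB11, ABCC3 and ABCG2. One was also present in 1 of the 39 C4-2BER-only peaks (2.56%, 0.454 to 13.2, against 0.254%) and in none of the shared peaks. A forkhead match was found in 15 of 105 (14.3% against 19.4%) and 2 of 39 (5.13% against 8.29%), and AP-1 in 12 of 105 (11.4% against 10.7%) and 4 of 39 (10.3% against 8.62%). A GC box was found in 5 of 105 (4.76% against 4.76%) and 9 of 39 (23.1%, 12.6 to 38.3, against 15.5%). The CTCF element was found in none of these line-only peaks and the LXR element in no peak of an ABC gene. Of the shares set against all genes here, that of the androgen response element in C4-2BER-only peaks had an interval above its background, and it rests on 1 peak.

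Members of the superfamily without an ABC symbol and a fixed list of regulators were scored in the same way. TAP1 and TAP2, the peptide transporters of antigen presentation, and CFTR, the chloride channel, had promoter peaks in both lines with log2 ratios of 0.12, 0.34 and 0.08. The value of CFTR compared different sites, 132837 bp downstream of the canonical TSS in C4-2B and 1178 bp downstream in C4-2BER. Of 16 nuclear receptors and other regulators of ABC genes, 13 had a promoter peak in both lines. The bile acid receptor NR1H4 and the retinoid X receptor RXRG had one in C4-2BER only, with 18 and 19 reads, and the xenobiotic receptor NR1I2 had none. HNF4A had 9 and 25 reads at different sites (1.73, 0.59 to 3.02), and the other 12 lay between -0.29 and 0.29, including the oxysterol receptors NR1H2 (0.29) and NR1H3 (0.06). Apart from HNF4A, no regulator open in both lines differed 2-fold.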

How the data were processed

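ATAC-seq of C4-2B and C4-2BER was analysed from the 2 peak lists that the authors deposited, 1 per line, after merging 2 libraries each. Per the submitters' processing notes, FastQC, Bowtie2, Picard, bedtools 2.17 and MACS2 were used on hg38; other versions are not given in the sources used here. The deposited columns hold a score, a fold enrichment at the summit, −log10 p-values and −log10 q-values, and the offset of the summit in bp. Reads behind each summit were solved from the fold and −log10 p-value of the authors for 100% of summits (Poisson, pseudocount of 1 read), which assumes that macs2 extended reads to 200 bp, and were checked on simulated data.

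Promoters were 2000 bp either side of any TSS of a protein-coding transcript, peaks were shared at an overlap of 1 bp or more, and all 19689 protein-coding genes gave the background. Same-site pairs were peaks that were each other's strongest overlapping partner. Their summits could lie apart, as at the ABCG1 promoter, at -3 bp from the canonical TSS in C4-2B and 1279 bp downstream in C4-2BER. Shares have Wilson 95% intervals and log2 ratios exact binomial ones, which cover counting error only. ABC genes are named with their promoter class, except that some items are not reported here, in text or figures, although they count in the totals; values were fixed for genes with a promoter peak in 1 line, a ratio past 2-fold, all efflux genes, the 3 largest ratios per other role and the genes with most line-only peaks. Further sites were chosen after their values were seen. Members and lists were chosen with earlier results of these data known. Python 3.11.15, numpy 2.4.6, pandas 2.3.3, scipy 1.17.1 and matplotlib 3.10.9 were used.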

Additional observations from a re-analysis of the deposited data

How the results depend on the processing

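No paired analysis was possible because each line has 1 list made from both of its libraries, and no library could be left out. Depth limits the weakest sites, since a peak absent from a list may lie just under its threshold and C4-2B was read more deeply. With C4-2B scaled to the depth of C4-2BER, line-only peaks at ABC loci stayed at 105 and 39. The counts of genes by promoter class did not change either. That setting rescaled the reads of called summits and did not repeat the peak calling. It kept 149503 of the 149676 C4-2B peaks, so hardly any count could change, and the unchanged counts say little about depth. Of the summary values recomputed under alternatives, 89 stayed within their bounds and 35 moved; the cause was not tested unless the alternative itself removes peaks, windows or starts.

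Genes without a promoter peak numbered 9 at a −log10 q of at least 10, 13 with the top 50000 peaks, 9 with promoters of 500 bp and 11 with the canonical TSS only. Genes with one in C4-2B only numbered 2 with equal numbers of top peaks, 2 with the top 50000 peaks, 2 with promoters of 500 bp and 1 with the canonical TSS only. At gene bodies, C4-2B only held 1 gene at a −log10 q of at least 10, 1 with the top 50000 peaks and 1 without promoter windows, neither line held 2, 5 and 5, and C4-2BER only held 1 with the top 50000 peaks.

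Peaks at ABC loci of C4-2B only numbered 69 at a −log10 q of at least 10, 60 with equal numbers of peaks and 28 with the top 50000, and those of C4-2BER only 22 at a −log10 q of at least 10 and 69 with a reciprocal overlap of 50%. As shares, C4-2B only had 26.0% (equal numbers), 26.7% (top 50000) and 44.7% (reciprocal overlap), and C4-2BER only had 23.7%, 27.4% and 29.7%. Lists of equal length bring such shares close together in advance, so the equal-number settings do not show where the gap came from. At a −log10 q of at least 10, which does not fix the numbers, the shares were 37.3% in C4-2B and 15.9% in C4-2BER.

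Promoters 2-fold or more higher in C4-2BER numbered 1 at the same site, 1 at the canonical TSS only, 0 on the fold enrichment of the authors, 1 after centring on all genes, 1 with narrower promoters and 4 when promoter peaks were summed, and those lower numbered 1 at the canonical TSS only. ABCC8 reversed to 0.63 at its canonical TSS. On the fold enrichment of the authors ABCC8 had -0.70, ABCC11 -1.11, ABCD2 0.10 and ABCB1 0.13. AP-1 was matched in 20.0% of C4-2B-only peaks within 250 bp. Among alternatives chosen after seeing the data, same-site peaks 2-fold or more lower were 12.2% of sites at a −log10 q of at least 10 and 12.7% without ABCC4.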
